A study of Mus musculus with 4 samples.

Results

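Of the 54348 genes in the deposited table, 10 are described here: the nucleic acid sensors Ddx58, Ifih1, Dhx58, Zbp1 and Tlr3, the signalling genes Mavs, Tbk1 and Irf3, and the receptor genes Ifnar1 and Ifnar2. They were chosen by gene name, and each symbol had 1 row. Both fusion libraries held more transcript of Zbp1, Ifih1 and Ddx58 than either control library, and less of Mavs, Tbk1 and Ifnar1. The rise of the 3 sensors passed the test on the deposited values and after the libraries were brought to a common scale. Ifih1 and Zbp1 entered that test only through the fusion libraries, and with no filter on low values Ifih1 and Ddx58 did not pass (adjusted p = 0.0789 and 0.0891, limma). The fall of the other 3 genes passed on the deposited values, where most genes were lower with the fusion, and not on the common scale. Dhx58, Tlr3, Irf3 and Ifnar2 had overlapping groups.

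Cells detect viral or misplaced nucleic acid with receptors that each recognise a different form of it. RIG-I (the product of Ddx58) and MDA5 (Ifih1) are cytosolic helicases that bind double-stranded RNA and signal through the mitochondrial adaptor MAVS, the kinase TBK1 and the transcription factor IRF3, which turns on the gene for interferon beta. Secreted type I interferon then binds a receptor made of IFNAR1 and IFNAR2 and, through JAK kinases and a transcription factor complex that contains IRF9, raises a large set of genes that includes several of the sensors themselves. In the brain the pathway is best known from virus infection and from inherited interferonopathies, in which faulty removal of the cell's own nucleic acid sets it off.

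The libraries came from live tdTomato-positive forebrain cells of mouse pups at postnatal day 4, all given tamoxifen on postnatal days 0 and 1. The control group (2 libraries) had the genotype PdgfraCreER;AI14 and the fusion group (2 libraries) PdgfraCreER;MN1:BEND2;AI14. CreER is a recombinase that works after tamoxifen, here under control of Pdgfra, a marker of oligodendrocyte precursors that some fibroblasts also make. AI14 is the tdTomato reporter, carried by both groups, and MN1:BEND2 is a gene fusion of the brain tumour astroblastoma. The comparison asks how these genes were expressed in the Pdgfra lineage with and without the fusion. Whether the replicates are different mice is not stated, and the p-values cover only library-to-library spread, possibly technical. Paired values are in the order replicate 1, replicate 2.

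The libraries of the groups also differed in other ways. Levels are in TPM (transcripts per 1000000, a share of the library corrected for transcript length), so the read depth is unknown. Mitochondrially encoded genes took 7.30% to 10.1% of TPM in controls and 26.2% to 48.7% with the fusion. At least 1 TPM was reached by 12772 and 13219 genes in controls and 9050 and 10017 with the fusion. Bend2, part of the transgene's name, was at a listed 0 in each control and at 3.82 and 8.72 TPM with the fusion. The Y-linked gene Eif2s3y had 121 and 122 TPM in controls and was at a listed 0 with the fusion, so sex and genotype cannot be told apart. Of 11 oligodendrocyte precursor markers, 10 were above 0 in every library and Matn4 was listed at 0 in fusion replicate 2; the list had summed levels of 1494 and 1923 TPM in controls and 469 and 618 TPM with the fusion.

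Of the 10 genes, 8 reached 1 TPM in at least 2 libraries and were tested with limma on log2(TPM + 1), with p-values adjusted over all 12871 genes tested. On that scale 3 of the 8 rose, 3 fell and the other 2 missed the threshold. Among all tested genes 4.95% rose and 51.3% fell, and the median log2 change was -1.41, so 3 falls among 8 genes lie near the background. Since neither Ifih1 nor Zbp1 reached 1 TPM in a control library, counts of risers among the tested genes are a description. For 3 of the 10 genes the fusion pair was higher than either control and for 3 it was lower, against 10.2% and 71.1% of all tested genes. In sorted cells measured in bulk, fewer cells of a type and less RNA per cell cannot be told apart.

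**Figure D1:**
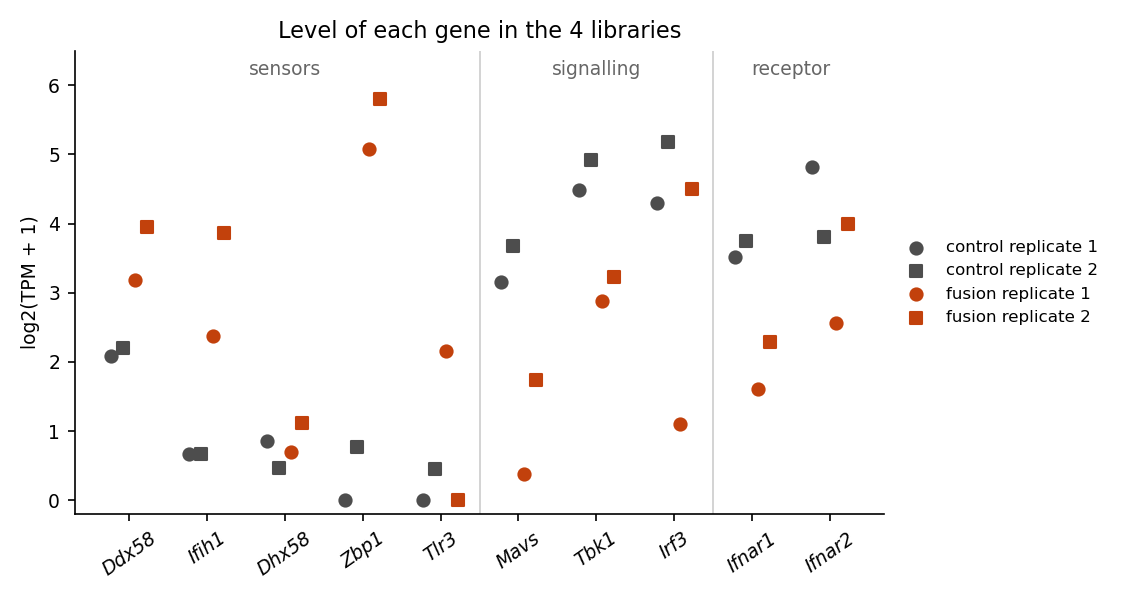
Level of each of the 10 genes, as log2(TPM + 1), in control (grey) and fusion (orange) replicate 1 (circles) and 2 (squares); each point is 1 library. Zbp1, Ifih1 and Ddx58 lie above both control libraries in both fusion libraries, Mavs, Tbk1 and Ifnar1 lie below them, and the other 4 genes overlap.

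Zbp1 encodes a sensor of left-handed (Z-form) nucleic acid that can trigger inflammatory cell death through RIPK3. Zbp1 (ENSMUSG00000027514.14, chromosome 2, 173206612 to 173218923, minus strand, GRCm38) was listed at 0 and at 0.700 TPM in control replicates 1 and 2 and had 32.8 and 55.0 TPM in fusion replicates 1 and 2. It was among the 4 lowest of the 10 genes in controls and the highest of them in both fusion libraries. Its log2 change was 5.06 ± 0.52 (SE, n = 2 per group; 95% interval 3.74 to 6.38; adjusted p = 0.00371, limma). Its partners in cell death were low throughout, with Ripk3 at 1.05 TPM or less and Mlkl at 1.09 TPM or less in any of the 4 libraries.

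Ifih1 encodes MDA5, which binds long double-stranded RNA. Ifih1 (ENSMUSG00000026896.14, chromosome 2, 62595798 to 62646255, minus strand) had 0.591 and 0.589 TPM in controls and 4.19 and 13.5 TPM with the fusion. The control libraries were alike and the fusion libraries differed from each other, yet the lower of them was well above both controls. Mean TPM was 15.0-fold higher in the fusion group (log2 change 2.45 ± 0.59, SE, n = 2 per group; 95% interval 0.95 to 3.95; adjusted p = 0.0197, limma).

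Ddx58 encodes RIG-I, which recognises the triphosphate end of short double-stranded RNA. Ddx58 (ENSMUSG00000040296.15, chromosome 4, 40203773 to 40239828, minus strand) had 3.23 and 3.60 TPM in controls and 8.07 and 14.4 TPM with the fusion. It was the one sensor of the 5 above 1 TPM in controls. Mean TPM was 3.29-fold higher in the fusion group, and the log2 change of 1.42 ± 0.47 (SE, n = 2 per group; 95% interval 0.22 to 2.62) passed only just (adjusted p = 0.0499, limma). Without fusion replicate 2 its change was 1.04 and it did not pass (adjusted p = 0.0686, limma).

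The other sensors were low and were not tested. Dhx58 (ENSMUSG00000017830.15, chromosome 11, 100694884 to 100704271, minus strand) encodes LGP2, a relative of RIG-I and MDA5 that lacks their signalling domains and modulates them. It had 0.802 and 0.375 TPM in controls and 0.622 and 1.16 TPM with the fusion, and the groups overlapped. Tlr3 (ENSMUSG00000031639.12, chromosome 8, 45395665 to 45411080, minus strand) encodes the endosomal receptor for double-stranded RNA. It was listed at 0 in control replicate 1 and in fusion replicate 2, and had 0.371 TPM in control replicate 2 and 3.46 TPM in fusion replicate 1, so that its level in the fusion group rested on 1 library. With no filter on low values, log2 changes were 0.25 ± 0.32 for Dhx58 and 0.85 ± 0.83 for Tlr3 (SE, n = 2 per group; adjusted p = 0.588 and 0.486, limma). Antisense genes annotated over parts of Dhx58 and Tlr3 were listed at 0 in every library.

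The signalling genes were lower than the control in at least 1 fusion library each. Mavs (ENSMUSG00000037523.13, chromosome 2, 131234063 to 131248025, plus strand), the adaptor on which RIG-I and MDA5 converge, had 7.92 and 11.8 TPM in controls and 0.305 and 2.32 TPM with the fusion. Mean TPM was 7.51-fold lower in the fusion group (log2 change -2.36 ± 0.60, SE, n = 2 per group; adjusted p = 0.0228, limma). Tbk1 (ENSMUSG00000020115.3, chromosome 10, 121546455 to 121586787, minus strand), the kinase that phosphorylates IRF3, had 21.3 and 29.4 TPM in controls and 6.40 and 8.36 TPM with the fusion. The groups of both genes were apart, and Tbk1 was the more even of them within each group. The log2 change of Tbk1 was -1.65 ± 0.41 (SE, n = 2 per group; adjusted p = 0.0211, limma).

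Irf3 encodes the transcription factor at the end of this chain. Irf3 (ENSMUSG00000003184.15, chromosome 7, 44997648 to 45002848, plus strand) had 18.7 and 35.4 TPM in controls and 1.14 and 21.7 TPM with the fusion. The fusion libraries disagreed: replicate 1 was far below both controls and replicate 2 lay between them. The log2 change of -1.94 ± 1.15 (SE, n = 2 per group) did not pass (95% interval -4.86 to 0.97; adjusted p = 0.199, limma). Without fusion replicate 2 it was -3.65 (adjusted p = 0.00810, limma). Irf3 overlaps Bcl2l12 on the other strand over 1065 bases. Bcl2l12 had 2.34 and 1.92 TPM in controls and 1.16 and 0.0654 TPM with the fusion, and without strand their common reads cannot be told apart.

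The receptor subunits lie in 1 cluster of cytokine receptor genes on chromosome 16. Ifnar1 (ENSMUSG00000022967.13, 91485238 to 91507441, plus strand) had 10.4 and 12.5 TPM in controls and 2.03 and 3.89 TPM with the fusion, with the groups apart. Mean TPM was 3.87-fold lower in the fusion group (log2 change -1.69 ± 0.47, SE, n = 2 per group; adjusted p = 0.0294, limma). Ifnar2 (ENSMUSG00000022971.18, 91372783 to 91405589, plus strand), the subunit that binds interferon with the higher affinity, had 27.2 and 12.9 TPM in controls and 4.93 and 14.9 TPM with the fusion. Fusion replicate 2 lay between the controls, and the log2 change of -1.03 ± 0.66 (SE, n = 2 per group) did not pass (95% interval -2.69 to 0.63; adjusted p = 0.229, limma). The neighbouring receptor gene Il10rb fell, and Ifngr2 at the other end of the cluster had 4.67 and 4.14 TPM in controls and 2.47 and 2.93 TPM with the fusion without passing. Gm21970, a gene model that overlaps Ifnar2 and Il10rb on the same strand, was at 0.139 TPM or less throughout.

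The calls of Mavs, Tbk1 and Ifnar1 depended on the scale of the libraries. After the libraries were rescaled to a median ratio of 1 over 10965 genes, 14.3% of tested genes rose and 18.6% fell. On that scale Zbp1, Ifih1 and Ddx58 rose by log2 changes of 6.05, 3.47 and 2.86 (adjusted p = 0.0108, 0.0139 and 0.0123, limma), and none of the other 5 tested genes passed. The rescaled changes were -1.16 for Mavs, -0.00295 for Tbk1, -0.44 for Irf3 and -0.21 for Ifnar1, and Ifnar2 turned to 0.59 (adjusted p = 0.207 to 0.996, limma). Measured from the median of -1.41 on the deposited scale, Zbp1, Ifih1 and Ddx58 lay at 6.46, 3.86 and 2.83. The genes lower in TPM lay at -0.95 for Mavs, -0.54 for Irf3, -0.28 for Ifnar1 and -0.24 for Tbk1, and Ifnar2 lay at 0.38. Without control replicate 1, and without control replicate 2, no member passed on the deposited scale, with adjusted p from 0.0760 to 0.270 for the 3 sensors and from 0.140 to 0.253 for Mavs, Tbk1 and Ifnar1. In those fits the lone control library was taken to vary like the fusion pair.

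**Figure D2:**
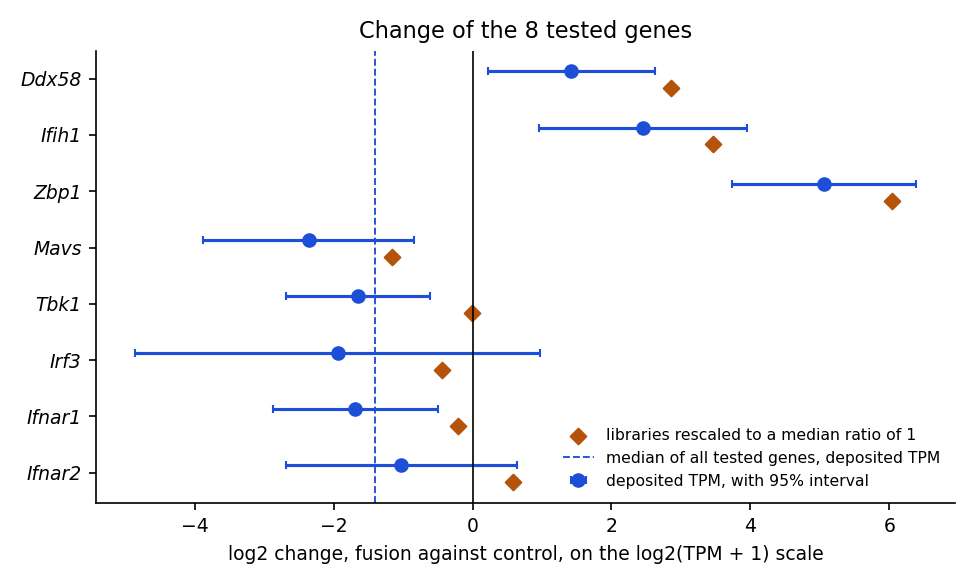
Log2 change from control to fusion of the 8 tested genes on the log2(TPM + 1) scale, from the deposited TPM with the 95% interval of limma (blue circles) and after rescaling of the libraries (brown diamonds); the dashed line is the median of all tested genes, -1.41. The 3 sensors lie above 0 on both scales, while the intervals of the other 5 genes include the dashed line and their rescaled values lie between -1.16 and 0.59.

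Ranks within a library do not depend on its scale. They do depend on the filter, which admitted Ifih1 and Zbp1 only for their fusion levels, so that their low control ranks were set by it and are a description. Ddx58 exceeded 26.5% and 24.4% of the tested genes in controls and 74.0% and 77.4% with the fusion. Ifih1 went from 3.50% and 3.15% to 61.4% and 76.5%, and Zbp1 from 0% and 3.50% to 89.4% and 89.9%. Dhx58 ranked higher with the fusion, at 25.8% and 28.6% against 4.37% and 2.50%, although its TPM overlapped: 0.802 TPM ranked at 4.37% in control replicate 1 and 0.622 TPM at 25.8% in fusion replicate 1. The rank that a given TPM takes thus differed between groups. More of the tested genes were listed at 0 with the fusion (8.03% and 8.78%) than in controls (1.27% and 1.36%). Tbk1 held its place, at 67.0% and 70.1% in controls and 70.0% and 68.4% with the fusion. Ifnar1 exceeded 53.1% and 52.8% of tested genes in controls and 46.6% and 52.6% with the fusion. Mavs was lower in both, at 47.0% and 51.6% against 19.1% and 41.4%.

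**Figure D3:**
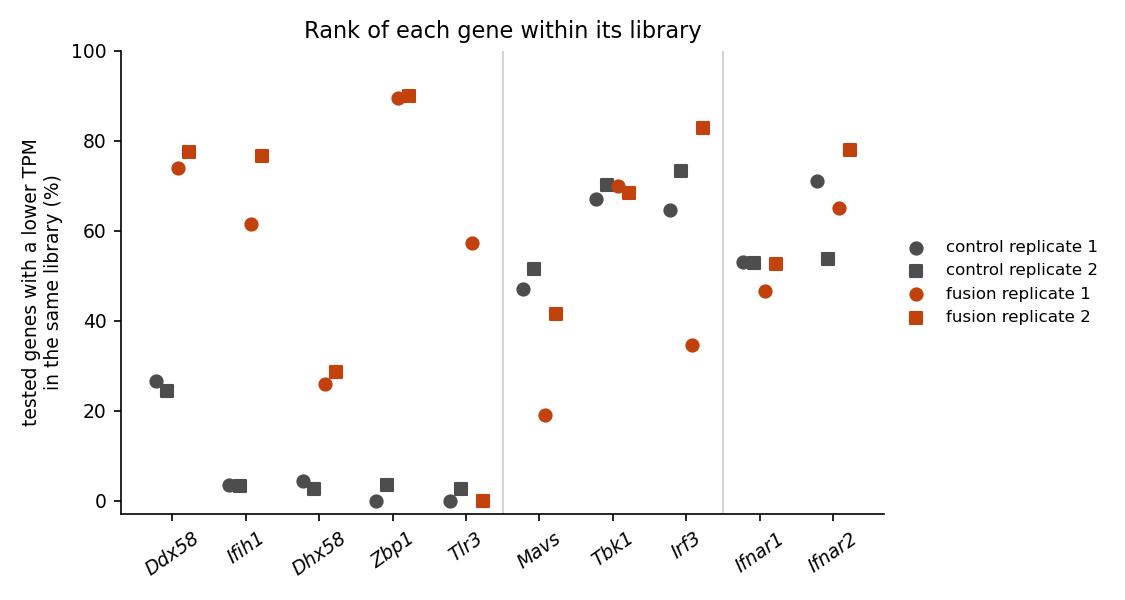
Share of the tested genes (in percent) with a lower TPM than each gene in the same library, for control (grey) and fusion (orange) replicate 1 (circles) and 2 (squares); each point is 1 library. Zbp1, Ifih1 and Ddx58 stand between 61.4% and 89.9% with the fusion and at 26.5% or less in controls, and Tbk1 stays between 67.0% and 70.1%.

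Ratios of TPM between genes of 1 library do not depend on its scale. They restate the levels given above, and a gene that rose set over a gene that fell must shift, so they are a description. The level of Ddx58 was 0.152 and 0.122 times that of Tbk1 in controls and 1.26 and 1.72 times with the fusion. Relative to the adaptor Mavs, Ifih1 stood at 0.0747 and 0.0498 in controls and at 13.7 and 5.83 with the fusion. Ddx58 exceeded Ifih1 by 5.46 and 6.11 times in controls, and by 1.93 and 1.06 times with the fusion. The ratio of Ifnar2 to Ifnar1 overlapped between groups, at 2.61 and 1.04 in controls and 2.42 and 3.84 with the fusion. Summed over the 5 sensors, levels were 4.62 and 5.63 TPM in controls and 49.1 and 84.1 TPM with the fusion; most of the latter was Zbp1. The sums for Mavs, Tbk1 and Irf3 were 48.0 and 76.6 TPM in controls and 7.84 and 32.4 TPM with the fusion.

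In controls the order of levels was led by Irf3, Tbk1 and Ifnar2, followed by Ifnar1, Mavs and Ddx58, with Ifih1, Dhx58, Zbp1 and Tlr3 below 1 TPM. The leading 3 overlapped one another across controls, as did Ifnar1 and Mavs. In the fusion libraries Zbp1 led, and Ddx58, Ifih1, Tbk1 and Ifnar2 overlapped below it, between 4.19 and 14.9 TPM. Irf3 could not be placed, since it ranked low in replicate 1 and next to Zbp1 in replicate 2. Mavs, Dhx58, Tlr3 and Ifnar1 stayed below 4 TPM in both.

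The interferon-stimulated response element, bound by the complex that contains IRF9 and by other IRF proteins, was searched in promoters as the letters GAAANNGAAA on both strands. RefSeq promoter windows (GRCm38.p6, 250 bases before to 50 bases from the start of transcription) were given for 8 of the 10 genes, without Dhx58 and Zbp1. Of all 32851 windows 3.44% hold the element. Among the 8 genes it lay in the windows of Ddx58 and Ifih1, and its letters were not found in those of Tlr3, Mavs, Tbk1, Irf3, Ifnar1 and Ifnar2. Ddx58 and Ifih1 rose, but Tlr3 was not tested and Zbp1, which rose, had no window. Element and rise therefore cannot be compared among the sensors. A match is a description of letters and not a binding site. The sites are shown in 30 bases of the gene's strand, 5′ to 3′, with the element in capitals, beside those of pathway genes for comparison. Where the capitals read TTTC, the element is on the other strand.
Ddx58 (chr4:40239804-40239833, minus strand): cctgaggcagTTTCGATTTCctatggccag
Ifih1 (chr2:62646206-62646235, minus strand): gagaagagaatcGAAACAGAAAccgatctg
Oas1a (chr5:120907526-120907555, minus strand): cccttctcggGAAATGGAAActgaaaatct
Ddx60 (chr8:61928058-61928087, plus strand): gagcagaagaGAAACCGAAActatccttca
Eif2ak2 (chr17:78882535-78882564, minus strand): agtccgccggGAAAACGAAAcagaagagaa
Stat2 (chr10:128270266-128270295, plus strand): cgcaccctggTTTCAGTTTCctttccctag

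Counted from the first transcribed base as 1, the element began at base 3 in Ddx58 and at base 33 in Ifih1, within the transcribed part of the window. It began at base 19 in Eif2ak2, and before the start in Oas1a, Ddx60 and Stat2. Ddx60 has another such match further upstream, and in Oas1a another overlaps the one shown. In the genes shown the element is followed by the C of its longer form, which 0.819% of all windows hold, but the 4 pathway genes were chosen after their values were seen. Socs1, which was at 0.0132 TPM or less in every library, also holds the longer form. Oas3, Myd88, Ripk1, Irf2, Ifi203, Mndal and Ifna genes hold the element without that C. Irf7 and Irf9, which rose, had windows in which the letters of the element were not found.

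The wider pathway was read from 6 lists with 89 genes in the table, of which 37 were tested. On the deposited scale 5 of the 37 rose, 15 fell and 17 did not pass, and their median log2 change of -1.14 compares with -1.41 over all tested genes, of which 4.95% rose and 51.3% fell. After rescaling 10 rose and 2 fell, beside 14.3% and 18.6% of all tested genes. Of the 5 risers on the deposited scale, Ddx60, Oas1a, Irf7 and Usp18 stayed below 1 TPM in both controls. These genes entered the test only through the fusion libraries, so counts of risers among the pathway genes are a description. Without control replicate 1, and likewise without control replicate 2, none rose and 3 fell (Tradd, Nlrx1 and Dnase2a).

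Among other nucleic acid sensors, 5 of 18 genes were tested, 2 rose and none fell, beside 4.95% and 51.3% of all tested genes. Ddx60, a helicase that aids RIG-I, was at a listed 0 in each control and had 16.7 and 6.90 TPM with the fusion (log2 change 3.56 ± 0.51, SE, n = 2 per group; adjusted p = 0.00520, limma). Oas1a, whose enzyme makes the activator of RNase L when bound to double-stranded RNA, had 0.769 and 0.222 TPM in controls and 7.65 and 4.47 TPM with the fusion. Both rose after rescaling, by 4.34 and 3.19. Eif2ak2, the RNA-activated kinase PKR, had 1.38 and 1.40 TPM in controls and 3.53 and 1.98 TPM with the fusion, and did not pass (adjusted p = 0.215, limma). Cgas, the cytosolic DNA sensor, was at 0.236 TPM or less throughout, and its adaptor Sting1 was at a listed 0 with the fusion and had 0.0590 and 0.683 TPM in controls.

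Adaptors and regulators had 10 tested genes of 19, of which 6 fell, 4 did not pass and none rose, near the 51.3% of all tested genes that fell; after rescaling 2 rose (Tank and Azi2) and 1 fell (Tradd). Tradd, an adaptor of death receptors and of MAVS, had 3.28 and 3.00 TPM in controls, and with the fusion 0.0122 TPM and a listed 0 (log2 change -2.04). It did not pass with quantile normalization or with a correction for GC content and length. Over 16 settings its change lay between -4.93 and -0.07. Rnf135, the ligase that ubiquitinates RIG-I, fell by 1.98 on the log2 scale, or by 0.95 without passing after rescaling, and turned to 0.14 with a correction for GC content and length. Fadd, a death domain adaptor, fell by 1.86, and Unc93b1, which carries endosomal Toll-like receptors to their place, fell by 1.65 but turned to 0.48 with that correction. Tank, a scaffold for TBK1, had 38.7 and 38.8 TPM in controls and 23.2 and 37.9 TPM with the fusion.

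Of the IRF family, 4 of 8 genes were tested and 2 rose, beside 4.95% of all tested genes. Irf7, the interferon-induced relative of IRF3, had 0.0240 and 0.339 TPM in controls and 9.20 and 21.1 TPM with the fusion (log2 change 3.68 ± 0.53, SE, n = 2 per group; adjusted p = 0.00537, limma). Irf9, the DNA-binding subunit of the complex that the receptor activates, had 1.97 and 2.39 TPM in controls and 7.49 and 25.1 TPM with the fusion (log2 change 2.23 ± 0.65, SE, n = 2 per group; adjusted p = 0.0341, limma). Both fusion libraries were above both controls for these genes, and both rose after rescaling. Irf7 overlaps Phrf1 on the other strand (12.8 and 10.7 TPM in controls, 3.82 and 13.9 TPM with the fusion), and their common reads cannot be told apart. Irf9 overlaps Rnf31 on the same strand, and Rnf31 was at 2.85 TPM or less. The ratio of Irf7 to Irf3 was 0.00128 and 0.00958 in controls and 8.10 and 0.971 with the fusion.

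Receptors and their signalling genes had 8 tested members of 12: 1 rose, 2 fell and 5 missed the threshold. Over all tested genes 4.95% rose and 51.3% fell. Usp18, which binds IFNAR2 and damps the response, had 0.633 and 0.265 TPM in controls and 49.5 and 38.2 TPM with the fusion, a log2 change of 4.95 ± 0.44 (SE, n = 2 per group; adjusted p = 0.00367, limma). Ifngr1, for the interferon gamma receptor, had 63.7 and 56.1 TPM in controls and 7.57 and 9.26 TPM with the fusion (log2 change -2.70), and Il10rb had 2.71 and 5.94 against 0.121 and 0.450 TPM (log2 change -1.99). After rescaling neither Ifngr1 nor Il10rb passed (-1.01 and -1.11, adjusted p = 0.0747 and 0.0745, limma). Of the kinases that bind the receptor, Jak1 had 8.57 and 10.0 TPM in controls and 3.18 and 8.72 TPM with the fusion, and Tyk2 was at 1.22 TPM or less throughout.

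Interferon genes themselves were hardly present. Of 21 interferon ligand genes in the table, among them Ifnb1 and the Ifna genes, 19 were listed at 0 in every library and none was tested. Ifna14 had 0.0492 TPM in fusion replicate 1 and was listed at 0 elsewhere. Ifnz had 0.0270 TPM in control replicate 1 and 2.13 TPM in fusion replicate 2, and was listed at 0 in the other libraries. Depth is unknown, so a listed 0 does not bound the level.

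Genes that limit the cell's own nucleic acid had 10 tested members of 11, of which 7 fell, 3 did not pass and none rose, beside 51.3% of all tested genes that fell. Their median of -1.43 was close to the -1.41 of all tested genes, and after rescaling 1 fell, beside 18.6% of all tested genes. That gene was Rnaseh2a, the catalytic subunit of RNase H2, which removes RNA from RNA-DNA hybrids. Rnaseh2a (ENSMUSG00000052926.16, chromosome 8, 84956610 to 84969767, minus strand) had 75.1 and 108 TPM in controls and 0.0294 and 1.39 TPM with the fusion (log2 change -5.86 ± 0.56, SE, n = 2 per group, or -4.74 after rescaling; adjusted p = 0.00371 and 0.0116, limma). Its change lay between -7.69 and -3.67 over 17 settings and passed in 15 of them, without control replicate 1 and without control replicate 2 excepted. The other subunits stayed higher: Rnaseh2b had 216 and 169 TPM in controls and 47.4 and 144 TPM with the fusion, and Rnaseh2c had 50.3 and 52.3 against 12.2 and 15.7 TPM. Rnaseh2c fell by 1.82 on the log2 scale and lay at -0.11 after rescaling. Rnaseh2a overlaps Prdx2 on the other strand, and Prdx2 had 1231 and 1356 TPM in controls and 187 and 380 TPM with the fusion. Rnaseh2c likewise overlaps Kat5 (22.2 and 34.8 TPM in controls, 0.0300 and 1.05 TPM with the fusion). Rnaseh2b likewise overlaps Dleu7 (12.7 and 6.01 TPM in controls, 10.5 and 10.4 TPM with the fusion). Without strand the common reads of each pair cannot be told apart, which limits the comparison of the subunits. Pnpt1, which keeps mitochondrial double-stranded RNA in check, had 26.3 and 21.7 TPM in controls and 3.80 and 4.98 TPM with the fusion, and Dnase2a, the lysosomal DNase, had 2.19 and 5.50 against 0.255 and 0.236 TPM. The log2 changes of Pnpt1 and Dnase2a were -2.21 and -1.87, and that of Dnase2a turned to 0.28 with the correction for GC content and length.

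**Figure D4:**
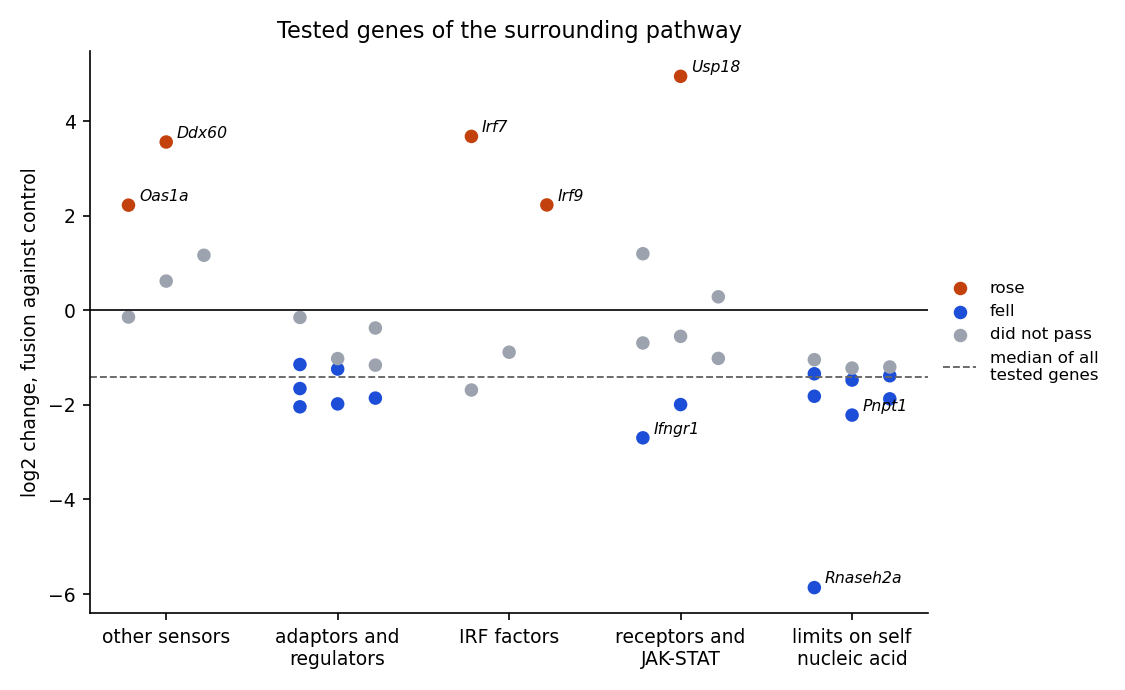
Log2 change from control to fusion (deposited TPM) of the 37 tested pathway genes by role; each point is 1 gene, orange for genes that rose, blue for genes that fell, grey for genes that did not pass, and the dashed line is the median of all tested genes, -1.41. The 5 genes that rose are Usp18, Irf7, Ddx60, Irf9 and Oas1a, and Rnaseh2a lies lowest, at -5.86.

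Likeness was measured as the Euclidean distance between log2(TPM + 1) values centred over the 4 libraries, among 7026 tested genes with a mean of at least 5 TPM. The genes nearest to Ddx58 were Magoh, Snhg6 and Rnaset2b (distances 0.128, 0.176 and 0.177). Magoh, of the exon junction complex, had 159 and 158 TPM in controls and 318 and 518 TPM with the fusion. Rnaset2b has a near-identical copy, so its own value is uncertain. The genes nearest to Ifnar1 were Maneal, Bcl7c and Sez6l (distances 0.0395, 0.0702 and 0.0723). Maneal had 8.98 and 10.4 TPM in controls and 1.65 and 3.30 TPM with the fusion. With 4 libraries in 2 groups, many genes follow so simple a pattern.

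Markers of other cells moved in the same libraries. The counts below stand beside 4.95% of all tested genes that rose and 51.3% that fell, or 14.3% and 18.6% after rescaling. Of 17 microglia and macrophage markers 13 were tested, 4 rose (Tyrobp, Aif1, Ctss and Fcer1g), 2 fell and 7 did not pass (5 rose and none fell after rescaling), with summed levels of 61.8 to 161 TPM in controls and 553 to 752 TPM with the fusion. The microglial marker P2ry12 was at a listed 0 with the fusion, and Cx3cr1 was at 0.112 TPM or less there. Pial membranes had been removed before digestion. Of 11 fibroblast markers, all tested, 4 rose, 1 fell and 6 did not pass, with summed levels of 63.8 to 178 TPM in controls and 558 to 1079 TPM with the fusion. After rescaling 8 rose and none fell, and most of the fusion sum was Mgp, at 364 and 717 TPM. Of 10 lymphocyte markers none was tested, 6 were listed at 0 in every library (Cd3e, Cd3d and Cd3g of T cells among them), and summed levels were 0.360 to 0.651 TPM in controls and 0.876 to 1.66 TPM with the fusion. Of 8 monocyte and neutrophil markers only Plac8 was tested, and it rose, from a listed 0 in controls to 266 and 239 TPM with the fusion. It made up nearly all of that list's sum (0.361 to 1.04 TPM in controls, 239 to 266 TPM with the fusion). The other 7 were below 1 TPM in each library, with S100a9 and Ly6g listed at 0 throughout. Of 7 dendritic cell markers only the interferon-induced Bst2 was tested, and it rose; Siglech, of plasmacytoid cells, was at 0.221 TPM or less throughout. Of the oligodendrocyte precursor markers, 8 of 11 fell and 3 did not pass, beside 51.3% of all tested genes that fell; after rescaling 1 rose, 3 fell and 7 did not pass. The 6 tested oligodendrocyte markers of 7 all fell (4 after rescaling). That list summed to 2041 and 2873 TPM in controls and 182 and 147 TPM with the fusion. Astrocyte markers had 6 tested, of which 4 fell and none rose (1 fell and 1 rose after rescaling). Neuron markers had 7 tested, of which 4 fell and none rose (2 fell and 1 rose after rescaling). Among 8 endothelial markers only Cdh5 was tested, and it rose. The 2 tested pericyte markers had 1 fall (none after rescaling). The part of these cells in the levels of Zbp1, Ifih1 and Ddx58 was not tested.

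**Figure D5:**
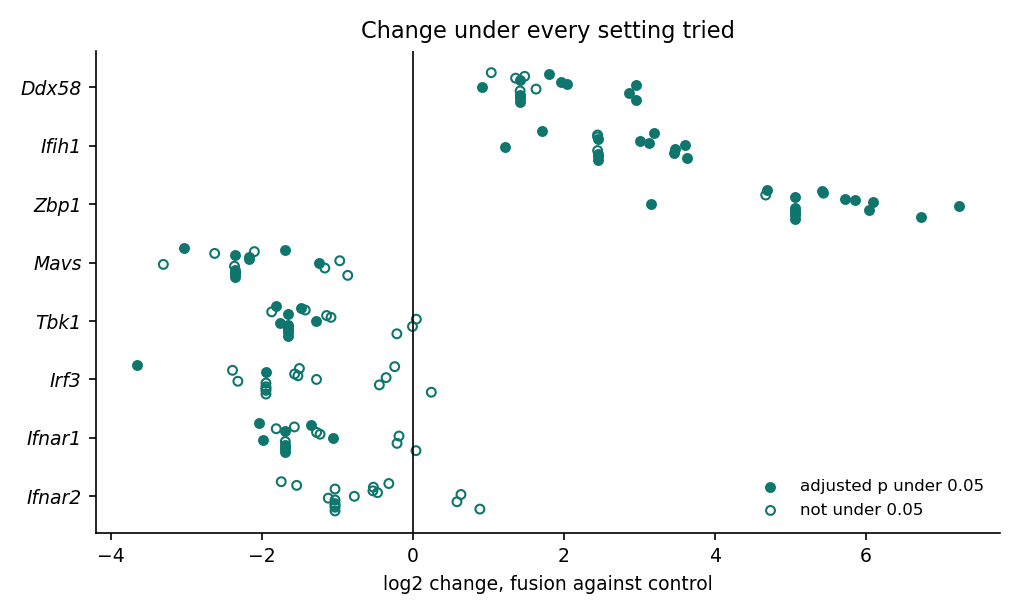
Log2 change from control to fusion of the 8 tested genes under every setting tried; each circle is 1 setting, filled where the adjusted p was under 0.05 (limma) and open where it was not. Ddx58, Ifih1 and Zbp1 lie above 0 in every setting, between 0.92 and 7.23, and Tbk1, Irf3, Ifnar1 and Ifnar2 reach 0.05, 0.25, 0.04 and 0.89.

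Over the 17 settings tried, or 16 for Ifih1, the change ranged from 3.16 to 7.23 for Zbp1 and passed in 15 settings, from 1.22 to 3.63 for Ifih1 and passed in 13, and from 0.92 to 2.96 for Ddx58 and passed in 12. The change of Mavs ranged from -3.30 to -0.86 and passed in 10. That of Tbk1 ranged from -1.87 to 0.05 and passed in 10, and that of Ifnar1 from -2.03 to 0.04 and passed in 9. Irf3 passed in 2 settings and Ifnar2 in none.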

How the data were processed

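The deposited values are TPM computed by the authors, 54348 rows, in which each of the 4 libraries sums to 1000000. Trimmomatic 0.39 and Salmon 1.8.0 appear, with GRCm38 and mm10 as builds, per the submitters' processing notes. Annotation and transcript summing were not given in the sources used here. No label states a strand-specific kit. TPM keeps no depth, so no counting interval is given, and a gene that gains share takes it from the rest. Full-length cDNA was amplified before sequencing, per the labels' protocols, and no label names molecular identifiers.

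Column names gave the group and number of each sample. The 12871 genes that reached 1 TPM in 2 or more libraries were tested on log2(TPM + 1), a scale that understates the change of low genes, using R 4.3.3 and limma 3.58.1 (2-sided, variance trend on), Benjamini-Hochberg adjustment over all of them and a threshold of 0.05. With 2 libraries a group an exact permutation test cannot go below p = 0.333. The fit was also run on simulated libraries in which few genes changed, as many up as down. These had no shift common to most genes, so they do not test the fit under the shift seen here. Coordinates and overlaps came from GENCODE M21 (GRCm38) and promoters from RefSeq (GRCm38.p6). The members and lists were chosen with earlier results of these data known. The text names all 10 members and, from each pathway list, up to 4 genes past the threshold with the largest change, or the 3 of highest mean where none passed, and every interferon gene above 0. Eif2ak2, Cgas, Sting1, Tank, Azi2, Nlrx1, Ripk3, Mlkl, Stat2, Jak1, Tyk2, Ifngr2, Rnaseh2b, Tlr7 and Aim2, the promoters shown or named beside those of members, and the marker genes named were chosen after their values were seen.

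Settings varied in turn: the pseudocount (0.1 or 5), no filter or a mean TPM of 5, median ratio scaling, quantile normalization, renormalization without mitochondrially encoded genes or also without ribosomal protein genes, a correction for GC content and length (loess, span 0.3, mean over a gene's transcripts, 12862 genes), limma with no trend, robust limma, each library omitted, the replicate block, and a longer form of the promoter element.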

Additional observations from a re-analysis of the deposited data

How the results depend on the processing

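Of the members' changes under the alternatives, 89 kept their direction and side of the threshold, 30 lost the call, 2 gained it and 6 turned. With median ratio scaling, quantile normalization and the GC and length correction, in that order, log2 changes were -1.16, -0.97 and -0.86 for Mavs, -0.00295, 0.0479 and -0.21 for Tbk1, -0.21, -0.18 and 0.0432 for Ifnar1 and 0.59, 0.64 and 0.89 for Ifnar2, none of which passed, and 0.25 for Irf3 with the last. No member fell in any of these 3 settings, and the 3 sensors rose in each. Of the pathway genes 10, 11 and 10 rose and 2, 1 and 2 fell. Renormalized without mitochondrially encoded genes, or also without ribosomal protein genes, Tbk1 changed by -1.14 or -1.08 and Ifnar1 by -1.27 or -1.23 without passing, and 1 member fell. With no filter, Ddx58 (1.42), Ifih1 (2.45), Mavs (-2.36) and Ifnar1 (-1.69) did not pass, and 1 member rose, 1 fell, 3 pathway genes rose and 7 fell. With a pseudocount of 0.1, Ddx58 (1.63) and Mavs (-3.30) did not pass. With a mean of at least 5 TPM 5 pathway genes fell, and fewer were tested. For the other settings the cause was not tested. TPM keeps no depth, so what depth limits is unknown.

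With the replicate block Irf3 passed (-1.94, adjusted p = 0.0299, limma) and no other member's call changed. Deviations of same-numbered libraries had a correlation of -0.0398 over genes. This rests on just the control difference and the fusion difference, so it cannot show whether same-numbered libraries share an origin.

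With 1 library left out, changes ranged from 1.04 to 1.81 for Ddx58, from 1.71 to 3.19 for Ifih1, from 4.68 to 5.44 for Zbp1, from -3.03 to -1.69 for Mavs, from -1.87 to -1.42 for Tbk1, from -3.65 to -0.24 for Irf3, from -2.03 to -1.34 for Ifnar1 and from -1.74 to -0.32 for Ifnar2. Members that rose numbered 0 to 3 and members that fell 0 to 4, and pathway genes that rose 0 to 7 and that fell 3 to 17. Calls over all genes went from 637 up and 6606 down to 15 and 1105 without control replicate 1 to 14 and 1025 without control replicate 2, and to 1084 and 6679 without fusion replicate 1. They were 1846 and 2396 with median ratio scaling, 1948 and 1955 with quantile normalization, 1694 and 2084 with the GC and length correction, 353 and 4586 with no filter, 405 and 4444 when the mean had to reach 5 TPM, and 978 and 5060 or 971 and 4824 after the renormalizations. The longer promoter form was in 269 windows against 1131. Each group has 2 libraries, too few for a test of outlying libraries.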

Other observations

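The response element was also counted over all tested genes with a RefSeq promoter window, as a description. Genes low in controls, such as Ifih1, Ddx60 and Oas1a, which hold the element, entered the test only through the fusion libraries. Other genes admitted in that way were not set apart, so the shares that rose cannot show what the element does. Of 9561 such genes, 346 hold GAAANNGAAA, and 40 of the 346 rose (11.6%) and 157 fell (45.4%). Among the 9215 without it, 349 rose (3.79%) and 4854 fell (52.7%). The longer form, which ends in C, was held by 92 genes, of which 22 rose (23.9%) and 30 fell (32.6%). Without the members and the pathway genes, 36 of 339 genes with the element rose (10.6%). After rescaling, 23.1% of the genes with the element and 12.9% of those without it rose.

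Some sensors outside the test were above 1 TPM in 1 library. Tlr7, the endosomal receptor for single-stranded RNA, had 1.94 TPM in fusion replicate 2 and 0.0940 TPM or less in the other libraries. Aim2, a DNA sensor of the inflammasome, was at 0.944 and 1.38 TPM in controls, against 0.0193 TPM and a listed 0 with the fusion.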
